A study of Mus musculus with 16 samples.

Results

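Neurons admit calcium through voltage-gated channels, release it from the endoplasmic reticulum, and clear it with pumps and exchangers. This section follows the genes of that machinery in the hippocampus of mice lacking APP, the amyloid precursor protein, its relative APLP2, or both. The members are probe sets paired with 1 gene symbol of the following families: pore-forming alpha1 subunits (Cacna1), alpha2delta subunits (Cacna2d) and beta subunits (Cacnb) of voltage-gated calcium channels, ryanodine receptors (Ryr), IP3 receptors (Itpr), the SERCA pumps of the endoplasmic reticulum (Atp2a), the PMCA pumps of the plasma membrane (Atp2b), sodium/calcium exchangers (Slc8a), STIM sensors and ORAI channels. The rule found 89 of 45101 probe sets, for 36 of 18193 named genes. Of these, 63 probe sets and 30 genes had a mean signal at or above the array-wide median (a signal of 88.2) and could be tested, among 11664 genes tested in all.

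In this machinery the alpha1 subunit forms the pore that opens on depolarization, and the alpha2delta and beta subunits bring it to the membrane and tune it. Ryanodine and IP3 receptors release calcium from the endoplasmic reticulum, and SERCA pumps refill that store. PMCA pumps and sodium/calcium exchangers carry calcium out of the cell, the exchangers by using the sodium gradient. STIM proteins sense a fall of calcium inside the store and open ORAI channels in the plasma membrane, which is called store-operated entry.

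RNA of hippocampus was measured on 16 Affymetrix arrays, 4 from each of 4 groups. All samples came from male mice aged 2 months, of the strain labelled C56/BL6. The groups, named as in the sample titles, were WT (wild type), APPKO (APP-/-), APLP2KO (APLP2-/-) and N-dCKO, whose genotype label gives both APP-/- and APLP2-/-. The series title calls N-dCKO mice neuronal double-conditional knockouts, and the sources used here give neither the Cre driver nor the cells that lost the genes. Whether the replicates are separate animals is not in the labels, so each p-value measures only how these samples vary, and that variation may be technical. App signal was 13.6% of the WT mean in APPKO and 11.8% in N-dCKO, and Aplp2 signal was 19.4% in APLP2KO and 16.7% in N-dCKO. Markers of dentate granule neurons (8 of 8 listed), of CA1 pyramidal neurons (6 of 8) and of CA3 pyramidal neurons (7 of 8) passed the filter on low signals. A list of thalamus markers did so as well (9 of 10), so passing this filter does not tell hippocampus from other tissue.

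The median signal per array was 79.7 to 102 on the authors' scale. The choroid plexus list, whose genes mark the secretory epithelium of the ventricles, set some arrays apart: the sum of its 15 tested genes was 34885 to 46206 on the 12 WT, APPKO and APLP2KO arrays. It was 3956 to 40373 on the N-dCKO arrays, where only array 3 reached the range of the other groups. Results for N-dCKO are therefore also given without single arrays.

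Of the 30 tested genes, 2 changed in N-dCKO against WT. Slc8a1, the exchanger NCX1, rose by 1.30-fold, and Stim2, the store sensor that responds to small losses of store calcium, fell to 82.9% of the WT mean. These 2 genes are 6.67% of the members, beside 0.943% of all tested genes called in that comparison by the same rule, limma with an adjusted p below 0.05. No member was called in APPKO against WT, where 0.00857% of all genes were, or in APLP2KO against WT, where 0.129% were. At an unadjusted p below 0.05 the members numbered 2 of 30 in APPKO (5.18% of all genes), 2 of 30 in APLP2KO (7.44%) and 8 of 30 in N-dCKO (12% of all genes).

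The promoters of the 2 called genes are shown from RefSeq on GRCm38.p6. Each window runs from 250 bases before to 50 bases after the annotated start. Any link between these sequences and the changes in signal was not tested, nor was whether hippocampus uses these starts. The Slc8a1 window is chr17:81738338-81738637 on the minus strand, and the capitals mark GGAAA, the core letters of sites for the calcium-regulated factor NFAT. The Stim2 window is chr5:53998273-53998572 on the plus strand, and the capitals mark GGGCGG, the GC box. Both windows include the start site and the sequence upstream of it.
Slc8a1: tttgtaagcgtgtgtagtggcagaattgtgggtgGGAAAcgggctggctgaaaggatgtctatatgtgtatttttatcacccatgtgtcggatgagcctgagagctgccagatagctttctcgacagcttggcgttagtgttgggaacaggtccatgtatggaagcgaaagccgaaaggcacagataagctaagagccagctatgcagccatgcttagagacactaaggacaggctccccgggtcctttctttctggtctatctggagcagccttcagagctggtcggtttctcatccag
Stim2: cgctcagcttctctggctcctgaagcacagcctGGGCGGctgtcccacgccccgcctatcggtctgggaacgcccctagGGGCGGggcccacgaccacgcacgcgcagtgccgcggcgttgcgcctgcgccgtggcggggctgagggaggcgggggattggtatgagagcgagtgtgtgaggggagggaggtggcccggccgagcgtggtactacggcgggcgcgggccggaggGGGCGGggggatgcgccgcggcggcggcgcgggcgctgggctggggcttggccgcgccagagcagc

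The windows differ in composition. The Slc8a1 window had 50.7% G and C, 9 CpG dinucleotides and 1 GGAAA. The Stim2 window had 76.7% G and C, 39 CpG dinucleotides and 3 GC boxes on the printed strand, with 1 CCAAT on the opposite strand. RefSeq windows matched 29 of the 36 genes, with 39 windows, and both strands of each were searched. GGAAA was found in 18 of these 39 windows (46.2%), against 61.3% of all 32851 windows of that length. GGGCGG was found in 26 of 39 (66.7%), against 35.7% of all windows. The members' windows had a median of 68% G and C and 24 CpG dinucleotides, against 52.67% and 7 over all windows. CCAAT was found in 33.3% of members' windows and 37.4% of all, TATAAA in 2.56% and 13.6%, and CACGTG in 7.69% and 7.15%. TGACG was found in 25.6% of members' windows and 20.8% of all. TGACGTCA, the full cAMP response element that contains TGACG, was in none of the 39 (1.79% of all), and TGANTCA, the AP-1 site, was also in none (7.81% of all).

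Slc8a1 is the exchanger gene with a change in N-dCKO. Its signal was 834, 825, 799 and 848 on the 4 WT arrays and 1162, 1084, 1099.9 and 956 on the 4 N-dCKO arrays. It was 956, 824, 956 and 897 in APPKO and 862, 927, 889.9 and 861 in APLP2KO. All N-dCKO arrays lay above all WT and all APLP2KO arrays, and N-dCKO array 4, the lowest of its group, lay just below APPKO arrays 1 and 3. The means were 826 ± 20.6 in WT, 908 ± 62.5 in APPKO, 885 ± 30.9 in APLP2KO and 1076 ± 86.8 in N-dCKO (SD, n = 4). The log2 fold change of N-dCKO against WT was 0.37 ± 0.07 (SE), with a limma adjusted p of 0.00986 and a 95% interval of 0.23 to 0.52.

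On the probe set used in the fit, the mean Slc8a1 signals of both single knockouts lay between WT and N-dCKO, and neither passed the test. The log2 fold change against WT was 0.13 ± 0.07 in APPKO (limma adjusted p = 0.98) and 0.10 ± 0.07 in APLP2KO (0.82), although all APLP2KO arrays lay above all WT arrays. With median centring these values were 0.04 ± 0.09 and 0.02 ± 0.09. Among all genes, 1.71% had APLP2KO arrays wholly above WT. N-dCKO against APPKO gave 0.24 ± 0.07 (limma adjusted p = 0.244) and N-dCKO against APLP2KO 0.28 ± 0.07 (0.205), so the difference from either single knockout did not pass. In the 8 arrays without App against the 8 with it the value was 0.20 ± 0.05 (limma adjusted p = 0.101; 0.0332 without APPKO array 2), and for Aplp2 it was 0.17 ± 0.05 (0.136). The interaction, that is the N-dCKO difference beyond the sum of both single differences, was 0.14 ± 0.10, with a 95% interval of -0.06 to 0.35 (limma adjusted p = 1).

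A further Slc8a1 probe set passed the filter, and 2 more did not. The second one read 499, 448, 351 and 321 in WT and 551, 556, 628 and 434 in N-dCKO. It read 625, 499.6, 482 and 376 in APPKO and 661, 425, 566 and 608 in APLP2KO. These groups overlap on it. Its log2 fold change of N-dCKO against WT was 0.42 ± 0.17 (limma adjusted p = 0.328 over all probe sets), the same sign as the first. Unlike on the first, the APLP2KO mean (565) lay above the N-dCKO mean (542).

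The call on Slc8a1 was lost under 4 of 14 other settings, of which the 2 with a covariate are given with the markers. The limma adjusted p was 0.165 with median centring of the arrays, where the log2 fold change was 0.29, and 0.0594 with the mean over its probe sets (0.40). Without N-dCKO array 1 it was 0.0566 (0.34), and without any other single array it stayed between 0.00637 and 0.0347.

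The other exchangers did not pass. Slc8a2, the exchanger NCX2 of neurons, had log2 fold changes of -0.20 ± 0.11 in APPKO, 0.07 ± 0.11 in APLP2KO and 0.05 ± 0.11 in N-dCKO. Its N-dCKO arrays (391, 327, 326 and 329.8) all lay above its APPKO arrays (313, 248, 301 and 292), and the difference of 0.25 ± 0.11 did not pass (limma adjusted p = 0.582). Slc8a3, NCX3, had 0.18 ± 0.17 in N-dCKO, with a 95% interval of -0.17 to 0.54.

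Stim2 is the store-operated entry gene with a change in N-dCKO. Its signal was 3439, 3521, 2973 and 3235 in WT and 2677, 2657, 2667 and 2909 in N-dCKO. It was 3047, 2957, 3013 and 2842 in APPKO and 2834, 2732, 3158 and 3162 in APLP2KO. All N-dCKO arrays lay below all WT arrays, while N-dCKO array 4 lay within the range of both single knockouts. The means were 3292 ± 244 in WT, 2965 ± 90.0 in APPKO, 2971 ± 222 in APLP2KO and 2728 ± 121 in N-dCKO (SD, n = 4). The log2 fold change of N-dCKO against WT was -0.27 ± 0.06, with a limma adjusted p of 0.0412 and a 95% interval of -0.40 to -0.14.

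Both single knockouts had Stim2 means between WT and N-dCKO. The log2 fold change was -0.15 ± 0.06 in APPKO (limma adjusted p = 0.92) and -0.15 ± 0.06 in APLP2KO (0.595), and the unadjusted p was 0.027 and 0.0278. Median centring gave -0.24 ± 0.09 and -0.23 ± 0.09. N-dCKO differed from APPKO by -0.12 ± 0.06 and from APLP2KO by -0.12 ± 0.06, and neither passed (limma adjusted p = 0.68 and 0.631). Over 8 against 8 arrays the values were -0.13 ± 0.04 for App (0.262) and -0.13 ± 0.04 for Aplp2 (0.217). The interaction was 0.03 ± 0.09, with a 95% interval of -0.16 to 0.21.

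The second Stim2 probe set read 286, 251, 239 and 200.3 in WT and 219, 224, 191 and 202 in N-dCKO. It read 254, 225, 269.8 and 214 in APPKO and 232, 196, 269 and 193 in APLP2KO. The groups overlap on it, and its log2 fold change of N-dCKO against WT was -0.21 ± 0.13 (limma adjusted p = 0.607 over all probe sets), the same sign as the first. The Stim2 call sat close to the threshold. It was lost under 8 of 14 other settings, where the adjusted p reached 0.729, and without any 1 of 8 of the 16 arrays: WT array 1, 2 or 4, APPKO array 3 or 4, or N-dCKO array 1, 2 or 3, where it reached 0.154.

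**Figure D1:**
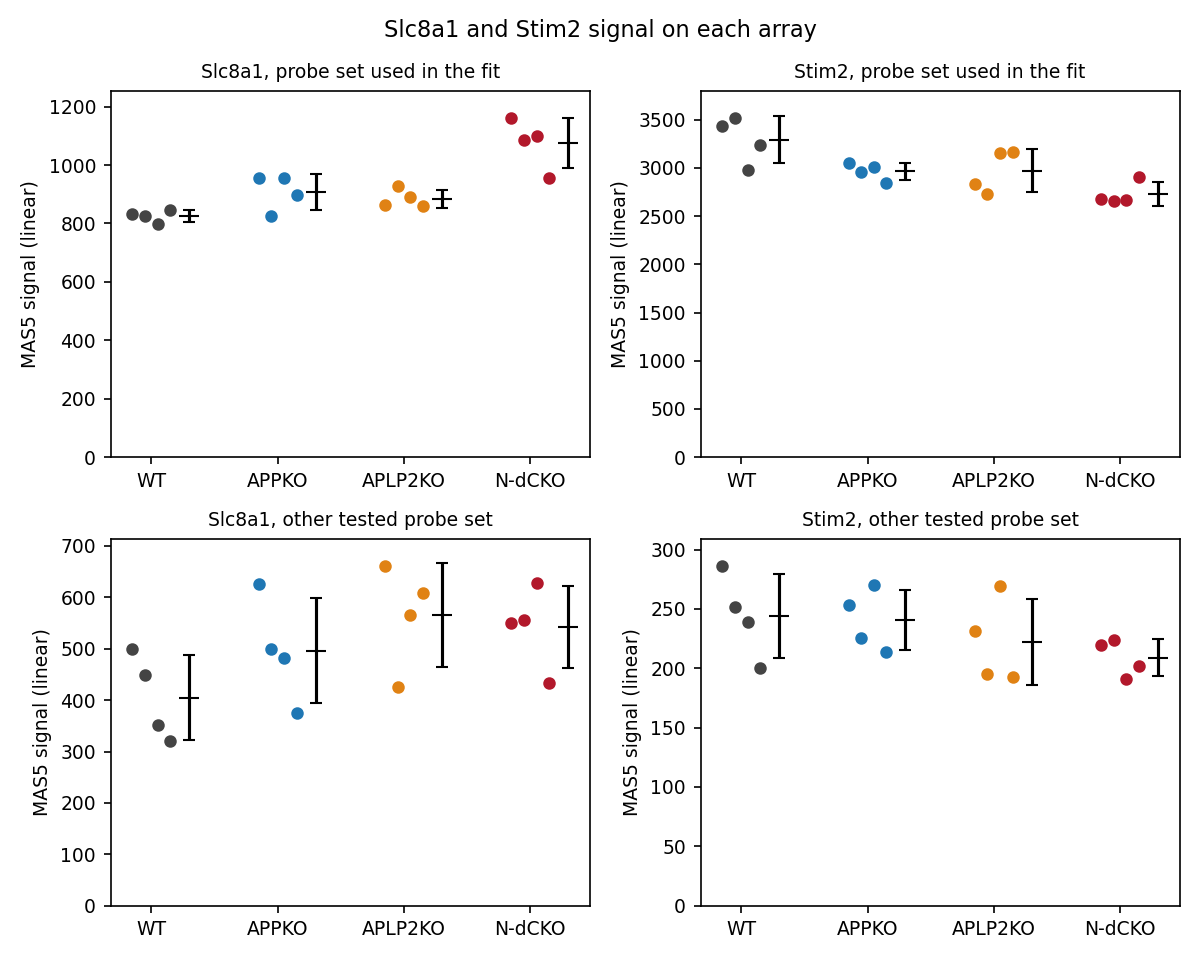
Linear MAS5 signal of Slc8a1 (left) and Stim2 (right) on each array, with the probe set used in the fit above and the other tested probe set below. Points are arrays by group and the black bar is the group mean ± SD (n = 4). In the upper panels the Slc8a1 signals of N-dCKO sit between 956 and 1162, above the highest WT array at 848, and the Stim2 signals of N-dCKO sit between 2657 and 2909, below the lowest WT array at 2973. In the lower panels the groups overlap.

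Marker genes of other cells and an RNA quality measure moved with N-dCKO as well. Of the 15 tested choroid plexus genes, 13 were called lower, for example the water channel Aqp1, at -2.44 ± 0.39 on the log2 scale (limma adjusted p = 0.0025). With the mean log2 signal of that list as a covariate, Slc8a1 had a log2 fold change of 0.38 ± 0.13 (adjusted p = 0.564) and Stim2 one of -0.26 ± 0.12 (0.729). Without it the SE were 0.07 and 0.06. That mean was 6.25 to 8.64 in N-dCKO and 8.93 to 9.89 in WT, so the covariate largely follows the group and can hardly be separated from it. Without N-dCKO array 3, whose choroid plexus signal lay in the range of the other groups, Slc8a1 had 0.36 (0.0285) and Stim2 -0.26 (0.0884). Gapdh probe sets at the 3' and the 5' end of the transcript gave a signal ratio of 0.797 to 0.834 in N-dCKO, above the 0.752 to 0.786 of WT. It was 0.745 to 0.806 in APPKO and 0.741 to 0.817 in APLP2KO. With that ratio as a covariate, Slc8a1 had 0.38 ± 0.09 (adjusted p = 0.164) and Stim2 -0.26 ± 0.08 (0.314).

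The summed signal of 14 microglia genes was 16825 to 17550 in WT and 13010 to 14016 in N-dCKO, with 6 called lower. It was 14609 to 16322 in APPKO and 14500 to 15553 in APLP2KO. For 13 genes of oligodendrocytes and myelin the sum was 99816 to 125364 in WT, 73679 to 113396 in APPKO, 100975 to 112472 in APLP2KO and 73340 to 90681 in N-dCKO, with 1 called lower (Mal). For 11 genes of GABAergic interneurons it was 47233 to 49803 in WT, 48455 to 51281 in APPKO, 48120 to 50486 in APLP2KO and 50973 to 53182 in N-dCKO, with 1 called higher (Reln). No gene of these lists read 0 on any array, and the lowest single signal was 0.43, of a choroid plexus gene.

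Further lists differed between WT and N-dCKO on the scale given for each, though limma called none of their genes there. The 9 ependyma genes summed to 1900.1 to 2056 in WT and 1198 to 1570 in N-dCKO, where all 9 had negative log2 fold changes. They summed to 1087 to 2031 in APPKO and to 1614 to 1899 in APLP2KO, also below all WT arrays. In each single knockout 8 of the 9 were negative. The 12 astrocyte genes summed to 70792 to 75751 in WT and 75889 to 81236 in N-dCKO, and both single knockouts reached similar sums, 76365 to 81903 in APPKO and 74156 to 82141 in APLP2KO. The 8 dentate granule genes summed to 14558 to 14942 in WT and 12697 to 14335 in N-dCKO. Their sums were 13808 to 14522 in APPKO, also below all WT arrays, and 13685 to 14563 in APLP2KO. As a mean of log2 signals, the 6 CA1 genes lay at 11.20 to 11.32 in WT and 11.36 to 11.43 in N-dCKO, the 7 CA3 genes at 9.80 to 9.85 and 9.72 to 9.76, and the 12 endothelial and mural genes at 9.002 to 9.158 and 8.951 to 8.994. None of these ranges overlapped between WT and N-dCKO on the scale given, while the summed signals of the CA1, CA3 and endothelial lists did. The mean log2 signals of the dentate list also overlapped, at 10.077 to 10.1903 in WT and 9.883 to 10.0785 in N-dCKO. For CA3 the direction changed with the scale: the mean of its sums was 11183 in WT and 11271 in N-dCKO. With median centring the positive list medians in N-dCKO were smaller, at 0.05 for astrocytes, 0.05 for CA1 and 0.06 for interneurons against 0.14, 0.14 and 0.15 on the authors' scale. The part of any of these cell types in the calcium gene results was not tested, and the choroid plexus covariate can hardly separate it from the genotype. In such bulk tissue, fewer cells of a type and less RNA per cell cannot be told apart.

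The remaining STIM and ORAI genes did not pass. Stim1, the sensor of larger store losses, had a mean of 589.5 ± 90.4 in WT and 497 ± 76.7 in N-dCKO, and its log2 fold change of -0.24 ± 0.13 had an interval of -0.51 to 0.03. Its second probe set gave 0.11 ± 0.16, the opposite sign. Orai2, a pore subunit of store-operated entry, read 1506, 1329.5, 1265 and 1058 in WT and 1191, 1068, 1028 and 1137 in APPKO. It read 1148, 1118, 1077 and 1188 in APLP2KO and 1023, 1089.8, 1266 and 1217 in N-dCKO. The WT arrays spread more widely than those of each knockout group: arrays 1 and 2 lay above every knockout array and array 4 below most of them. The log2 fold changes of Orai2 were -0.21 ± 0.09, -0.18 ± 0.09 and -0.16 ± 0.09 in that order of knockouts, and none passed (limma adjusted p = 0.92, 0.715 and 0.515). Without WT array 1 the Orai2 values were -0.13 ± 0.09 in APPKO and -0.10 ± 0.09 in APLP2KO. Orai1 and Orai3 had N-dCKO log2 fold changes of -0.01 ± 0.11 and -0.03 ± 0.11. All 5 STIM and ORAI genes thus had negative log2 fold changes in N-dCKO on the authors' scale, where 48.7% of all genes were positive. They were also negative with quantile normalization (48.8% of all genes positive). For Orai1 and Orai3 the value was smaller than its SE.

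No voltage-gated channel subunit passed the test in any comparison. Among the 7 tested alpha1 genes, 6 had positive log2 fold changes in N-dCKO against WT (48.7% of all genes), with a median of 0.20. Of the 7, 3 had an unadjusted p below 0.05 (12% of all genes). In APPKO 6 of the 7 were positive too, and none had an unadjusted p below 0.05. With median centring 5 of the 7 were positive in N-dCKO (23.8% of all genes). WT array 2 was the lowest WT array for Cacna1b, Cacna1d and Cacna1g, and WT array 4 for the other alpha1 genes. Cacna1b, the pore of the N-type channels of presynaptic terminals, read 1336, 996, 1308 and 1312 in WT and 1633, 1402, 1518 and 1428 in N-dCKO. It read 1397, 1269.8, 1472 and 1263 in APPKO and 1463, 1266, 1179 and 1383 in APLP2KO. All N-dCKO arrays lay above all WT arrays, of which WT array 2 was far below the other 3, and overlapped with both single knockouts. Cacna1b had a log2 fold change in N-dCKO of 0.28 ± 0.09 (limma adjusted p = 0.182), and 0.18 without WT array 2. Its 4 tested probe sets all had the same sign.

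Cacna1g, the pore of T-type channels that open near rest, read 309, 246, 343 and 288 in WT and 377, 315, 349.6 and 394 in APLP2KO. It read 309, 309, 343 and 303 in APPKO and 327, 376, 354 and 357 in N-dCKO. WT array 3 lay within the range of each knockout group, so no group was apart from WT. Its estimates on the log2 scale were 0.27 ± 0.11 in APLP2KO (limma adjusted p = 0.54), 0.25 ± 0.11 in N-dCKO (0.326) and 0.10 ± 0.11 in APPKO. Over the 8 arrays without Aplp2 against the 8 with it the value was 0.21 ± 0.07 (0.256).

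Cacna1e, the pore of R-type channels, had the highest mean signal of the alpha1 probe sets. It read 2927, 2894, 2938 and 2825 in WT and 2993, 2842, 3174 and 2792 in N-dCKO, so the N-dCKO arrays enclosed those of WT. It read 2994, 2888, 2959.7 and 2925 in APPKO and 2803, 2756, 2836 and 3082 in APLP2KO. Cacna1e thus had a log2 fold change in N-dCKO of 0.03 ± 0.05, with an interval of -0.08 to 0.13.

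The other alpha1 genes varied more. Cacna1d, an L-type pore, had N-dCKO arrays (583, 576, 675 and 567) all above its WT arrays (532, 409, 532 and 470.3) and a log2 difference of 0.30 ± 0.12 (limma adjusted p = 0.301). Cacna1c, the other L-type pore of brain, had 0.20 ± 0.14, and its second probe set -0.04 ± 0.10. Cacna1a, the pore of P/Q-type channels that drive transmitter release, had 0.16 ± 0.09, and its 2 further probe sets -0.16 ± 0.13 and 0.26 ± 0.16. Cacna1h, another T-type pore, had -0.07 ± 0.10. Cacna1f and Cacna1s, known from retina and skeletal muscle, were below the filter, with signals of at most 78.8 and 48.9 on any array.

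The 3 tested alpha2delta genes had positive log2 fold changes in N-dCKO (48.7% of all genes), also with median centring (23.8%), and none passed. All 3 were positive in APPKO as well, and WT array 2 was the lowest WT array for each. Cacna2d1, a target of gabapentin, read 3736, 3573, 3850.2 and 3877 in WT and 4570.2, 3647, 4099.8 and 3981 in APPKO. It read 3546, 3844, 3779 and 3662 in APLP2KO and 3952, 4273, 4541 and 3789 in N-dCKO. The highest arrays belonged to APPKO and N-dCKO, and every group overlapped with WT. Log2 fold changes of Cacna2d1 were 0.11 ± 0.07 in APPKO, -0.02 ± 0.07 in APLP2KO and 0.14 ± 0.07 in N-dCKO, and 0.13 ± 0.05 for the 8 arrays without App against the 8 with it (limma adjusted p = 0.325). With the mean over its probe sets that last value was 0.01 ± 0.08 (adjusted p = 0.99). Its 2 further tested probe sets gave 0.04 ± 0.33 and -0.19 ± 0.15 in N-dCKO. Cacna2d2 and Cacna2d3 had 0.22 ± 0.11 and 0.13 ± 0.06. Cacna2d4 was below the filter.

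None of the 3 tested beta subunits passed the test. Cacnb4, a subunit whose loss causes ataxia in mice, read 2732, 2963, 2592 and 2979 in WT and 3461, 3466, 2948 and 2948 in N-dCKO, where arrays 1 and 2 lay above all WT arrays and arrays 3 and 4 did not. It read 3169, 3287, 2464 and 2986 in APPKO and 3088, 2933, 2700.1 and 2747 in APLP2KO. Its N-dCKO log2 fold change was 0.18 ± 0.08 (limma adjusted p = 0.385). Cacnb2 had 0.09 ± 0.08 and Cacnb1 -0.10 ± 0.09, while the 2 further Cacnb1 probe sets gave 0.28 ± 0.12 and 0.07 ± 0.14.

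The store release channels did not pass either. Ryr2, the ryanodine receptor isoform prominent in heart and brain, read 2283, 2308, 2316 and 1918 in WT and 2325, 2148, 2008 and 2149 in APPKO. It read 1962, 2014, 1974 and 2205 in APLP2KO and 2122, 2129.7, 2461 and 2125 in N-dCKO. WT array 4 was the lowest of all 16 and N-dCKO array 3 the highest, and all groups overlapped. Against WT the log2 fold changes of Ryr2 were -0.03 ± 0.07, -0.11 ± 0.07 and 0.00 ± 0.07 in APPKO, APLP2KO and N-dCKO, and the interaction 0.14 ± 0.10. Ryr3, also expressed in hippocampus, had N-dCKO arrays (1159, 1234, 1313 and 1223) all above WT (1124, 1088, 1109.9 and 1051) and above APLP2KO (941, 1050.4, 1132 and 1149). Its log2 fold change against WT was 0.17 ± 0.08 (limma adjusted p = 0.391), its 3 tested probe sets had the same sign, and against APLP2KO it was 0.21 ± 0.08 (0.461). Ryr1, the isoform of skeletal muscle, had 0.28 ± 0.18, with an interval of -0.10 to 0.66.

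Itpr2, the IP3 receptor isoform prominent in astrocytes, read 511, 389, 419 and 443 in WT and 352, 395, 439.9 and 391 in APPKO. It read 451, 466, 442 and 535 in APLP2KO and 411, 387, 393 and 429 in N-dCKO. On this probe set, the one used in the fit, the APLP2KO arrays lay above all N-dCKO arrays, and WT overlapped with each group. On the log2 scale its differences from WT were -0.15 ± 0.10 in APPKO, 0.11 ± 0.10 in APLP2KO and -0.11 ± 0.10 in N-dCKO, and -0.22 ± 0.10 for N-dCKO against APLP2KO (limma adjusted p = 0.554). A further tested Itpr2 probe set had means of 104%, 112% and 97.0% of WT in APPKO, APLP2KO and N-dCKO. Another had 111%, 120% and 114%, so the sign in APPKO was opposite on both. The APLP2KO and N-dCKO arrays overlapped on each of them. Itpr3 was below the filter. Itpr1, the main neuronal isoform, Cacna1i and Cacnb3 were not analysed here.

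No pump gene passed the test. Atp2a2, the SERCA pump of most tissues, read 13719, 14394, 16163 and 15607 in WT and 15412, 14536, 17208 and 14982 in N-dCKO. It read 15340.4, 15445, 15761 and 15139 in APPKO and 15099.9, 14568, 16685 and 15462 in APLP2KO. No group was apart from another, and the log2 fold change in N-dCKO was 0.05 ± 0.06, with an interval of -0.07 to 0.18. Atp2a3 had 0.04 ± 0.20, with the wider interval of -0.37 to 0.46. Atp2b1, a plasma membrane pump found in most cells, read 8846, 9501, 9304 and 9423 in WT and 9865, 9747, 9997 and 8937 in N-dCKO. It read 10082, 9249, 10569 and 9471 in APPKO and 9202, 9006, 10127 and 9802 in APLP2KO, again with overlap throughout. Its log2 fold change in N-dCKO was 0.06 ± 0.05, with an interval of -0.06 to 0.17. Atp2b2 and Atp2b3, PMCA isoforms enriched in neurons, had 0.06 ± 0.05 and -0.15 ± 0.09. Atp2a1, the pump of fast muscle, and Atp2b4 were below the filter.

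**Figure D2:**
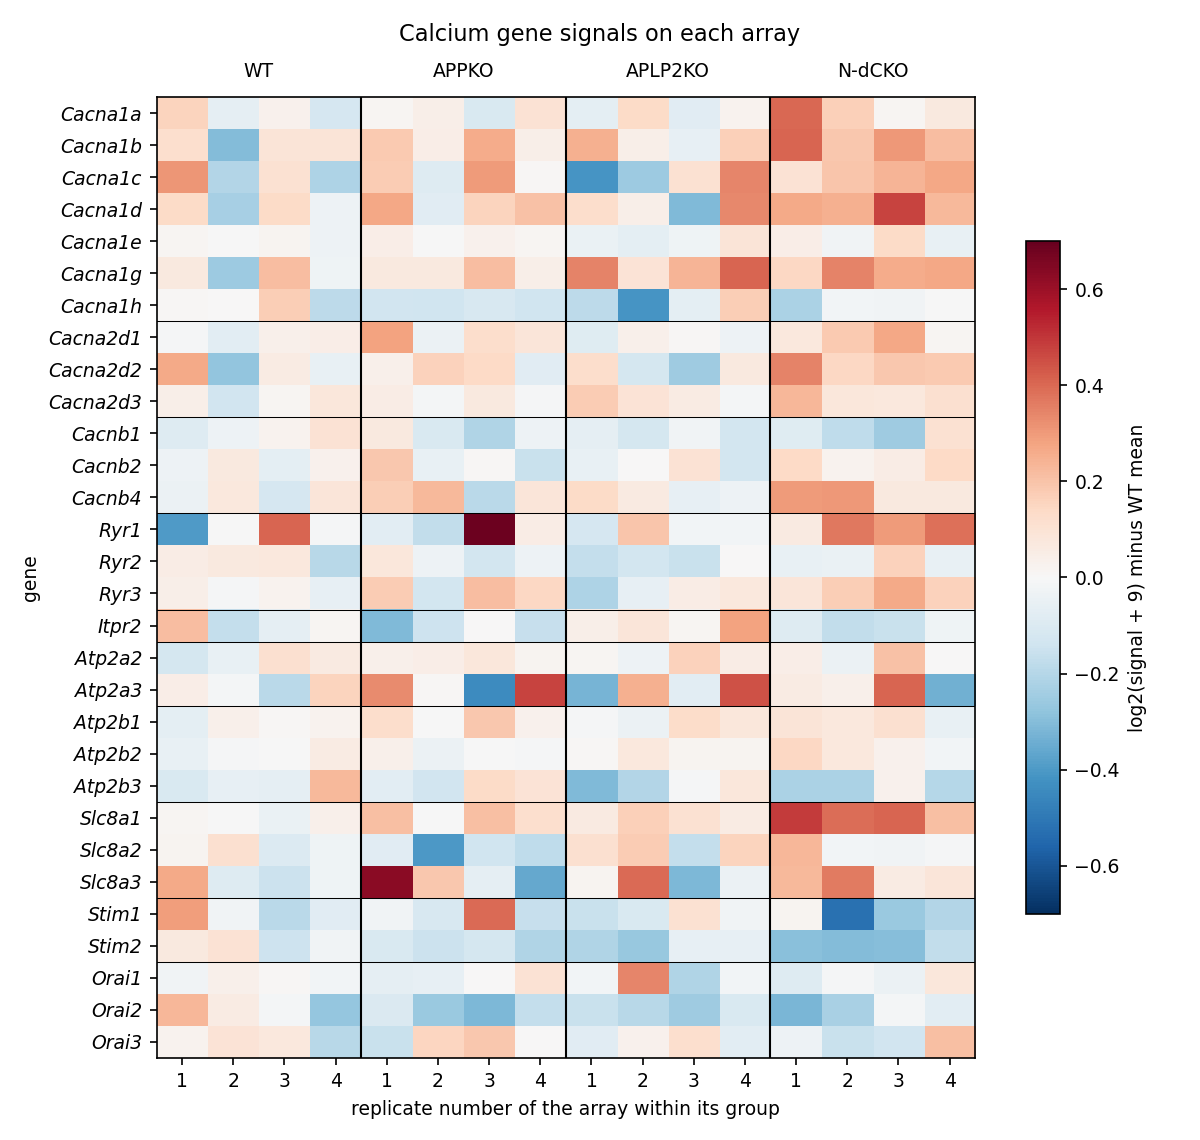
Log2(signal + 9) of each of the 30 tested genes (rows, in the order of their families) on each of the 16 arrays (columns, by group and replicate number), as the difference from the mean of the 4 WT arrays; red is higher and blue lower. The Slc8a1 row is red on all N-dCKO arrays and the Stim2 row is blue on all of them. The rows of Cacna1b, Cacna1d and Ryr3 are also red on all N-dCKO arrays. So are further rows whose N-dCKO arrays overlap with WT, such as Cacna1g, Cacna2d2 and Cacna2d3, and the Itpr2 row is faintly blue on all of them.

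Over all 30 genes, 21 had a positive log2 fold change in N-dCKO, 20 in APPKO and 16 in APLP2KO, where 48.7%, 48.3% and 46.7% of all genes had one. The medians were 0.06, 0.04 and 0.0055, against -0.0041, -0.0038 and -0.0081 over all genes. These 3 comparisons share the WT arrays. The counts depend on the scaling: with each array centred on its own median, all genes shifted, to a median of -0.09 in N-dCKO, and 14, 9 and 5 of the 30 were positive in N-dCKO, APPKO and APLP2KO, beside 23.8%, 16.8% and 22.5% of all genes. The called genes of the whole table also moved, from 29 higher among 110 in N-dCKO (26.4%) to 2 higher among 150 (1.33%).

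**Figure D3:**
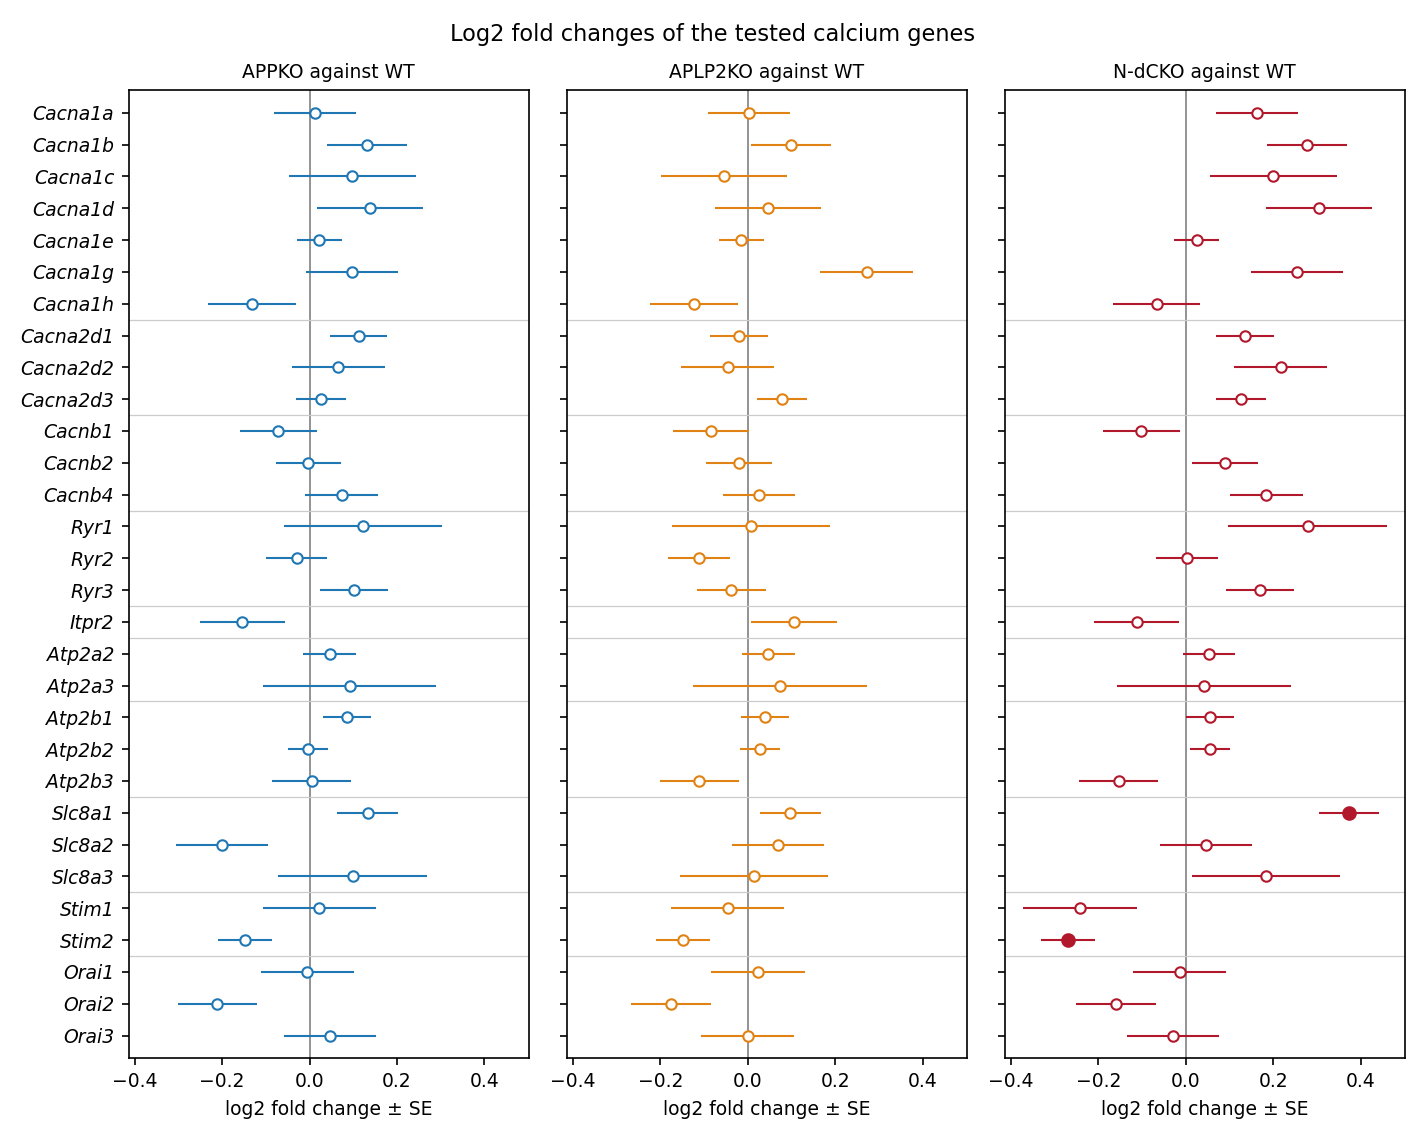
Log2 fold change ± SE of each tested gene against WT in the 3 knockout groups, from 1 limma fit over 16 arrays, with genes in the order of their families and grey lines between families. Filled points have an adjusted p below 0.05 and open points do not: only Slc8a1 (0.37) and Stim2 (-0.27) in N-dCKO are filled.

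In N-dCKO, 5 of the 30 genes had arrays that did not overlap with WT: Slc8a1, Cacna1b, Cacna1d and Ryr3 were higher and Stim2 was lower. Over all genes 2.9% were higher and 4.46% lower in that way. Against APPKO, Cacna2d3 and Slc8a2 were higher without overlap (1.95% of all genes). Against APLP2KO, Slc8a1, Cacna2d2 and Ryr3 were higher (2.25%) and Itpr2 lower (2.98%). No member was called against APPKO, where 0.352% of all genes were, or against APLP2KO, where 0.0257% were. None of the 30 had its 4 N-dCKO arrays above or below all 12 other arrays, which 0.154% and 0.223% of all genes had.

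The comparison of the 8 arrays without App with the 8 that had it called no member (0.0171% of all genes), and 8 of 30 had an unadjusted p below 0.05 (9.16% of all genes). Of the 8 arrays without App, 4 are N-dCKO, which also lack Aplp2. The same comparison for Aplp2 called none (0.917% of all genes), with 6 at an unadjusted p below 0.05 (10.5%). The interaction called none by limma, of the members or of all genes, and 0 of 30 had an unadjusted p below 0.05 (4.15% of all genes). In these 3 comparisons 21 of the 30 estimates were positive each time, beside 50.8%, 48.2% and 52.3% of all genes. The smallest adjusted p among the members was 0.101, 0.136 and 1.0. The median SE of a member was 0.06 in the 8 against 8 comparisons and 0.13 in the interaction.

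Probe sets of the same gene often disagreed. Of 20 members with more than 1 tested probe set (53 probe sets), 10 had the same sign on all of them in N-dCKO against WT, 9 in APPKO and 9 in APLP2KO. Slc8a1, Stim2, Cacna1b, Cacna1d and Ryr3 were among the 10 in N-dCKO, and Stim1, Cacna1a, Cacna2d1 and Cacnb1 were not.

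**Figure D4:**
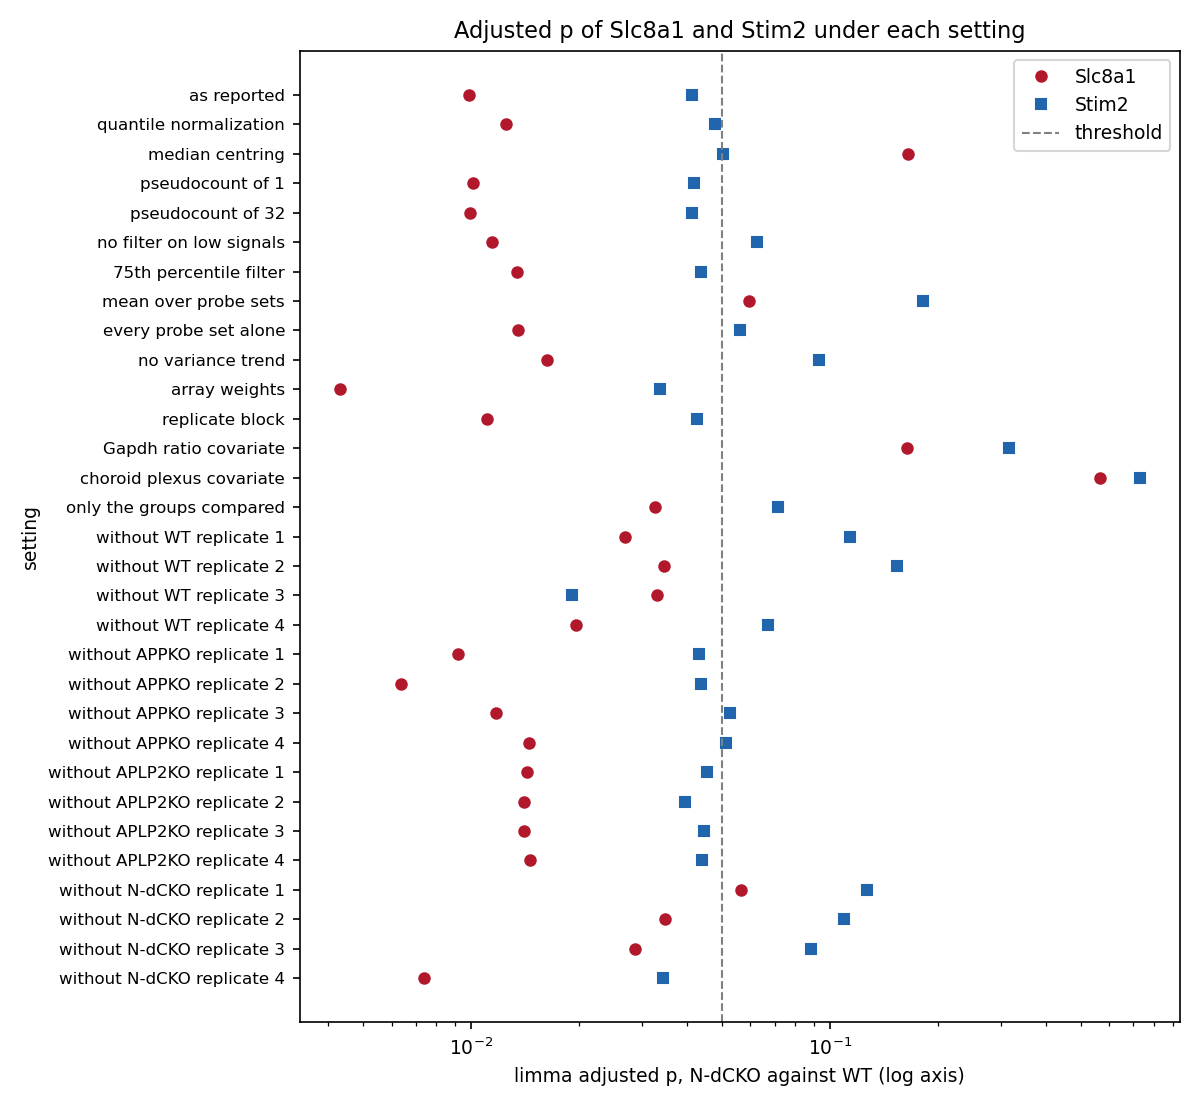
Adjusted p (log axis) of Slc8a1 (circles) and Stim2 (squares) in N-dCKO against WT under each processing setting and without each array, with the threshold of 0.05 as a dashed line. Slc8a1 crosses the line under 4 settings and without N-dCKO replicate 1, and Stim2 lies close to it or past it under most settings, up to 0.729 with the choroid plexus covariate.

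The neighbours of these genes in the calcium pathway were read from 8 lists of 128 genes, of which 107 were tested. None was called in N-dCKO against WT by limma, with 16 at an unadjusted p below 0.05 (12% of all genes). By sign 64 were positive (48.7% of all genes were) and 43 negative, with a median of 0.02. With median centring 34 were positive, the median was -0.07, and 1 gene of the TRP list was called lower. In the single knockouts none was called either, with 5 at an unadjusted p below 0.05 in APPKO (5.18% of all genes) and 8 in APLP2KO (7.44%), close to the share over all genes. The 1 call in any comparison was Hspa5, the chaperone BiP of the endoplasmic reticulum, which was lower in the 8 arrays without Aplp2 than in the 8 with it, at -0.32 ± 0.07 (limma adjusted p = 0.0404). Its N-dCKO value against WT was -0.30 ± 0.10 (adjusted p = 0.197).

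Upstream of the IP3 receptors, 19 phospholipase C and Gq genes were tested, and 1 had an unadjusted p below 0.05 in N-dCKO. It was Itpkb, a kinase that phosphorylates IP3, with -0.50 ± 0.14 (limma adjusted p = 0.0899). Gnaq, the Gq alpha subunit, had 0.09 ± 0.05 and Plch2 -0.15 ± 0.11. Around the stores 2 of 15 genes had an unadjusted p below 0.05, Hspa5 and the scaffold Homer3 (-0.34 ± 0.14), and Saraf, an inhibitor of store-operated entry, had -0.07 ± 0.05. In mitochondria 1 of 7 did, Mcur1 (-0.27 ± 0.10), while Mcu, the pore of the uniporter, had 0.16 ± 0.10 and Micu2 -0.08 ± 0.07.

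Of the 17 kinase and phosphatase genes that calcium and calmodulin control, 14 were positive and 5 had an unadjusted p below 0.05 in N-dCKO, beside the same 48.7% and 12% of all genes. They included Camk2g (0.24 ± 0.09), Camk1g (0.29 ± 0.11) and Camk4 (0.29 ± 0.13), with a median of 0.06 over the list. With median centring 8 of the 17 were positive, none had an unadjusted p below 0.05, and the median was -0.03. Of the 21 genes listed as calcium buffers and sensors 3 had an unadjusted p below 0.05. They were Pvalb, parvalbumin, which is also on the interneuron list (0.22 ± 0.09), Caln1 (0.13 ± 0.06) and Rcn2 (-0.11 ± 0.05). Of 16 TRP and other calcium-permeable channels 4 had an unadjusted p below 0.05. Among them were Trpm3 (-0.31 ± 0.09, limma adjusted p = 0.126), the leak channel Nalcn (0.15 ± 0.06) and the lysosomal channel Mcoln1 (-0.20 ± 0.08). None of the 6 tested Cacng genes did: Cacng4 had 0.20 ± 0.13, Cacng8 0.29 ± 0.26 and Cacng3 0.09 ± 0.14. None of the 6 Slc24 and related transporter genes did, with Tmco1 at -0.09 ± 0.06, Slc24a2 at -0.07 ± 0.06 and Atp2c1 at 0.05 ± 0.06.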

How the data were processed

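The authors deposited intensity values on a linear scale, made with MAS5 per the submitters' processing notes (version not given in the sources used here). Each array's 2% trimmed mean was 500, so this scaling was kept. Signals were analysed as log2(signal + 9), which understates changes of dim genes. Probe sets with a mean log2 signal at or above the median of all probe sets (6.60) were kept, and each gene was read from its brightest probe set. Among 45101 probe sets, 34945 had 1 symbol, 932 several and 9160 were unlisted apart from 64 controls. A RefSeq gene list of GRCm38.p6 held the gene number of 34741 of them and changed 0 symbols.

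limma 3.58.1 in R 4.3.3 (values read with data.table, version 1.17.8) fitted 4 group means to 16 arrays with a variance trend (12 residual and 19.4 moderated degrees of freedom). Tests were two-sided, with Benjamini-Hochberg adjustment over 11664 genes. An error after ± is the SE of a log2 fold change or the SD of signals. The script was tested on simulated data. Precision is limited by the number of arrays. The 6 comparisons were each knockout group against WT, the arrays without App or Aplp2 against the others, and the interaction. N-dCKO against each single knockout was added after seeing the data.

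Members and gene lists were chosen with earlier results of these data known. Values of every array are given for called members, the 3 members with the smallest p of each comparison and the brightest probe set of each family, and up to 3 genes are named per pathway list. Alternatives were quantile normalization, median centring, pseudocounts of 1 and 32, other filters, the mean over probe sets, array weights, every probe set tested singly, a fit without the variance trend, the replicate block, the 2 covariates, only the groups compared, and each array left out.

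The titles number replicates 1 to 4 in each group. Between WT and APPKO the deviations of all 4 same-numbered arrays from their group means correlated at 0.19 to 0.30, above the 0.1 required. The numbers were therefore read as pairs between these groups only. The values reported for APPKO against WT still come from the fit without a replicate block, so their SE and p do not use this pairing. A block over all 4 groups was run only as an alternative, and no fit paired WT and APPKO alone.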

Additional observations from a re-analysis of the deposited data

Results flagged for a closer look

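Of 120 gene and group pairs (30 genes in 4 groups), 10 had 1 array far from the other 3, with a gap above Dixon's 95% critical share of the group's range, where chance gives about 1 in 20. Of the 10, 6 were in N-dCKO, 3 in WT and 1 in APPKO.

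In N-dCKO, array 3 stood high for Ryr2 (2461 against 2122 to 2129.7 on the others, a gap of 0.977 of the range), for Atp2b3 (5306 against 4453 to 4535, 0.895) and for Cacna1d (675 against 567 to 583, 0.841). It is the N-dCKO array whose choroid plexus signal lay in the range of the other groups. Array 1 stood high for Slc8a2 (391 against 326 to 329.8, 0.934) and low for Cacna1h (694 against 798 to 809, 0.905). Array 4 stood high for Stim2 (2909 against 2657 to 2677, 0.917).

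In WT, array 2 stood low for Cacna1b (996 against 1308 to 1336, 0.927), array 4 low for Ryr2 (1918 against 2283 to 2316, 0.925) and high for Atp2b3 (6092 against 4830.1 to 5002, 0.849). In APPKO, array 3 stood high for Cacna1g (343 against 303 to 309, 0.83).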

How the results depend on the processing

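In N-dCKO against WT, the count of 2 called calcium genes was also 2 with quantile normalization, with pseudocounts of 1 and 32, with the 75th percentile filter and with array weights. It was 1 with every probe set tested alone, with no filter, with no variance trend and with only the groups compared, and 0 with the mean over probe sets, median centring, the Gapdh covariate and the choroid plexus covariate. With 1 array left out it ranged from 0 to 2: it was 0 without N-dCKO array 1, and 1 without WT array 1, 2 or 4, APPKO array 3 or 4, or N-dCKO array 2 or 3. For App loss over 8 against 8 arrays it ranged from 0 to 1, the 1 being Slc8a1 without APPKO array 2 (0.23, limma adjusted p = 0.0332). The log2 estimate of the Slc8a1 interaction was -0.10 with the mean over probe sets, the opposite of the reported 0.14; the cause was not tested. The counts in the other comparisons remained 0. The calls over all genes in N-dCKO against WT, 110 as reported, ran from 3 (choroid plexus covariate) to 198 (replicate block) and from 45 to 153 with 1 array left out. They ran from 1 to 66 for App loss (2 as reported; 1 to 94 with 1 array left out), from 28 to 150 for Aplp2 loss (107), from 3 to 31 in APLP2KO (15), from 1 to 60 against APPKO (41) and from 1 to 30 against APLP2KO (3). In APPKO they were 1 to 2 (1), and up to 16 with 1 array left out. The cause of these changes was not tested.

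With the replicate block the count of calcium genes in N-dCKO against WT was 2, as without it. The block changed no count of calcium genes in the other comparisons, including APPKO against WT. It was set over all 4 groups at once, also those whose numbers were not read as pairs, so it is not a paired test of APPKO against WT. Over all 24 same-numbered pairs the correlation was -0.022 to 0.30, with 7 above 0.1, and 13 correlated best with their own number. Between APLP2KO and N-dCKO it was 0.0822, 0.208, 0.0906 and 0.136, each higher than with any other number, though not all above 0.1. Between WT and N-dCKO it was -0.0218 to 0.0365. The block moved the calls over all genes in N-dCKO against WT from 110 to 198.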
